A study of Homo sapiens with 6 samples.

Results

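The proteins of the cytosolic ribosome are encoded by one of the most abundant groups of mRNAs in a growing cell. Members were taken by name from the deposited expression table, as loci with a gene symbol made of RPL or RPS, an optional P, a number and an optional A, X or L. Described here are 80 of 62828 loci, 49 with a large-subunit name and 31 with a small-subunit name. Ribosomal proteins with other symbols (such as RPSA, FAU and GNB2L1) are described apart. On the deposited scale all members kept for analysis were lower in the nuclear than in the cytosolic fraction, large and small subunit alike. In control cells so were 8332 of all 12836 loci kept and 320 of 347 other coding loci averaging 100 FPKM or more. After HNRNPU knockdown their levels stayed within a narrow band in whole-cell RNA, while in the nuclear fraction RPL7 and RPS7 were higher and RPS15 was lower by more than 20%.

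Libraries came from K562, an established human chronic myelogenous leukemia line from bone marrow. Cells were transfected with 300 nM siRNA against HNRNPU or with siRNA control oligos, and whole-cell, nuclear and cytosolic RNA of each was sequenced after depletion of ribosomal RNA. The 6 groups were thus control whole-cell, control nuclear, control cytosolic, and HNRNPU KD whole-cell, nuclear and cytosolic, with 1 library in each. With a single library behind each group, differences have no replicate check and no p-value is given. HNRNPU is a nuclear RNA-binding protein, and the design text asks about the subcellular localization of lncRNAs after its loss. Ribosomal protein mRNAs are another kind of transcript: short, stable and translated in the cytosol.

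Each ribosome has a small subunit, which reads the mRNA, and a large subunit, which joins amino acids. Their proteins are made in the cytosol, carried into the nucleus and built onto ribosomal RNA in the nucleolus. Because the proteins are needed in near-equal amounts, their mRNAs are controlled together. Most begin with a 5′ terminal oligopyrimidine (TOP) motif, a C followed by further C or T bases at the cap, through which mTOR signalling and the protein LARP1 adjust their translation. Many of their introns hold small nucleolar RNAs (snoRNAs). Loss of 1 working copy of some of these genes causes Diamond-Blackfan anemia, a failure of red-cell production, and K562 is an erythroid-like line.

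The TOP motif is a sequence feature that most members share and that the name rule did not use. The lines below show RefSeq sequence on GRCh38.p14 from 20 bases before to 10 bases from each start, 5′ to 3′ on the gene's strand, with the pyrimidine run at the start in capitals. They were chosen to set members with the motif beside 2 paralogs and 2 members without a run at the start itself.
RPS6: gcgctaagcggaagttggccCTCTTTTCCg
RPLP0: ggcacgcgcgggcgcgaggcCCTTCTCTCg
RPS12: ggcatgcgtgcggatgaggcCTCTTTCCCT
RPL13A: ccctgcgacaaaacctcctcCTTTTCCaag
RPL41: gtagacggaacttcgcctttCTCTCggcct
RPL39: gctcgttcttccgccagcttCCCTCCTCTT
RPS27: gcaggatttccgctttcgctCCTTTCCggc
RPS27L: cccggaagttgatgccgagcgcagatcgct
RPL10L: gcgcgcaggcgtagttaagagagcgcattt
RPS15: ataactgcgcaggcgcggaccaaagcgatc
RPS7: ttccggtttccgccctcctcctcgcgctgt
A run was counted when the first base was C and at least the next 4 were C or T, on the gene's strand only. Of 63 members with an entry in the RefSeq table, 45 had such a run at an annotated start (71.4%), against 5.14% of all 27305 genes in the table. Allowing the run to begin within 5 bases of the start gave 52 of 63 (82.5%), against 25.2% of all genes. The run in RPL39 and in RPS12 reaches the end of the window shown. RPS27 carries the motif and its paralog RPS27L does not have these letters in this window, nor does RPL10L. RPS15 had no run by either count. RPS7 had none at the annotated start but had one within 5 bases of it. Annotated starts can lie a few bases from the one a cell uses, so an absent match says only that the letters are not there.

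Levels are in FPKM, fragments per kilobase scaled to library size, a level per length. HNRNPU itself was lower after siRNA in each preparation. It went from 129 to 55.3 FPKM in whole-cell RNA (43.0% left), from 163 to 63.7 FPKM in the nuclear fraction (39.0%) and from 158 to 34.9 FPKM in the cytosolic fraction (22.1%). MALAT1, a nuclear lncRNA, read 141 FPKM in the cytosolic and 1984 FPKM in the nuclear control fraction. All 10 K562 and erythroid markers were above 1 FPKM in every library. Of 12 markers of other cell types 11 were found and 4 reached 1 FPKM, led by EPCAM with 23.7 FPKM, while KRT5 and MS4A1 were at 0 in all 6. Summed, those markers ranged from 13.6 to 28.9 FPKM in control and from 16.4 to 28.0 FPKM in knockdown libraries. One FPKM over 1 kilobase stood for between 13.7 fragments in the control cytosolic and 40.5 in the knockdown nuclear library, as estimated from the steps of low values.

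Of the 80 loci, 77 averaged 1 FPKM or more over the 6 libraries: 47 large-subunit and 30 small-subunit names. The 3 below it were RPL3L, the muscle paralog of RPL3, with a mean of 0.231 FPKM, RPL10L, a testis paralog of RPL10, with 0.160 FPKM, and RPS10L, listed at 0 in every library. The rest were among the highest loci of the table. In control RNA the family held 24.0% of the summed FPKM of protein-coding loci in whole-cell, 18.7% in nuclear and 33.5% in the cytosolic fraction. After knockdown the shares were 23.5%, 18.4% and 32.4%. Of the 100 highest loci outside mitochondrial and small RNA genes, between 62 and 71 were members in each library.

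Median levels were higher for small-subunit than for large-subunit loci in every library. In control whole-cell RNA the medians were 808 FPKM for 30 small-subunit loci and 659 FPKM for 47 large-subunit loci. In control nuclear RNA they were 682 and 536 FPKM, and in the control cytosolic fraction 2910 and 2181 FPKM. The ranges of the subunits overlapped widely. RPL13, a large-subunit protein, had the highest mean, with 1501 and 1586 FPKM in whole cells (control, then knockdown), 1338 and 1179 FPKM in the nuclear fraction, and 6377 and 5908 FPKM in the cytosolic fraction. RPL41, the smallest ribosomal protein, followed with 1830 and 1783 FPKM in whole-cell, 1656 and 1488 FPKM in nuclear, and 5521 and 5582 FPKM in the cytosolic fraction. RPS24, a small-subunit protein mutated in Diamond-Blackfan anemia, came next, at 1644 and 1729 FPKM, 1264 and 1264 FPKM, and 5609 and 5750 FPKM in the same order.

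At the lower end stood paralogs. RPS27L, a p53-responsive relative of RPS27, had 25.2 and 27.2 FPKM in whole cells (control, then knockdown), 19.7 and 22.4 FPKM in the nuclear fraction, and 71.3 and 78.3 FPKM in the cytosolic fraction. RPS27 itself ranged from 779 to 2306 FPKM. RPL39L, a paralog of RPL39 best known from the testis, had 27.1 and 28.0 FPKM, 22.5 and 25.1 FPKM, and 91.6 and 99.2 FPKM in the same order, while RPL39 ranged from 635 to 3555 FPKM. RPS26, at the mRNA exit of the small subunit, was the lowest member that is no paralog, with 132 and 150 FPKM in whole-cell, 139 and 139 FPKM in nuclear, and 314 and 356 FPKM in the cytosolic fraction. Members with near-identical copies elsewhere in the genome are uncertain, because fragments could be counted at the copy: 753 loci carry only ribosomal pseudogene names, of which 610 were at 0 in all 6 libraries, 11 averaged 1 FPKM or more and the highest mean was 11.1 FPKM.

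**Figure D1:**
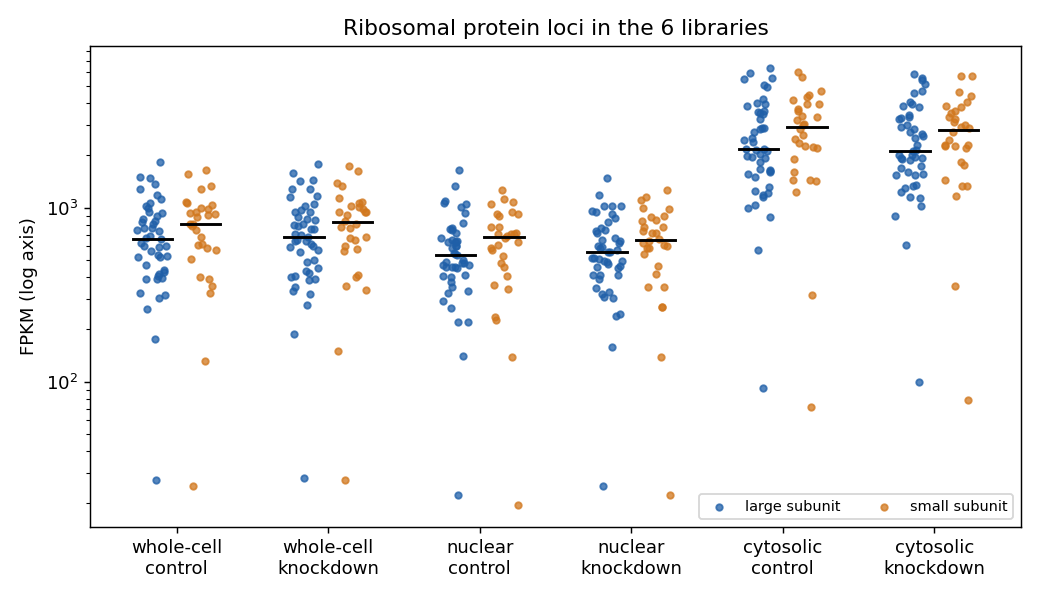
Each point is 1 ribosomal protein locus averaging 1 FPKM or more, placed by its FPKM (log axis) in the 6 libraries, in blue for the large and orange for the small subunit; bars are medians of each subunit. The whole cloud is highest in the cytosolic fraction, where the control medians are 2181 FPKM (large) and 2910 FPKM (small), and the paralogs RPS27L and RPL39L are the lowest points of each library.

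Every one of the 77 loci was higher in the cytosolic than in the nuclear fraction, in both conditions, on the deposited scale. In control RNA so were 8332 of all 12836 loci kept and 320 of 347 other coding loci averaging 100 FPKM or more. In control cells 8 of the 77 were higher in the nuclear fraction with quantile normalization (among them RPL36A, RPL37A, RPLP1, RPS15 and RPS27), and 1, RPS26, with equal totals. The log2 nuclear over cytosolic ratio (computed on FPKM plus 0.1) had a median of -2.10 in control cells and -2.05 after knockdown, a 4.28-fold and 4.13-fold higher level in the cytosol. Over the other 10200 protein-coding loci the medians were -0.60 and -0.60. The family median minus that of those loci was -1.50 in control cells and -1.45 after knockdown. How the authors scaled nuclear to cytosolic libraries is not stated in the labels or the table, and equal totals without mitochondrial and small RNA loci moved the coding median from -0.60 to 0.63. The distance of the family from other coding loci stayed at -1.48 under that scaling and at -1.49 with libraries set to equal medians. With quantile normalization, which forces all libraries to one distribution, it was -0.35.

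The counts at 2-fold and 4-fold, here and below, are on the deposited scale and were not taken under the other scalings. With equal totals and with quantile normalization the family's median ratio was short of 2-fold in both conditions, and with equal medians short of 4-fold. Of the 77 loci, 77 were at least 2-fold lower in the control nuclear fraction, where 29.1% of all 12836 loci were, and 49 were at least 4-fold lower, where 4.35% of all loci were. After knockdown 77 passed 2-fold, with 28.3% of all loci, and 44 passed 4-fold, with 3.59%. High expression went along with this: of 347 other coding loci averaging 100 FPKM or more, 68.6% were at least 2-fold and 15.3% at least 4-fold lower in the control nuclear fraction, and their median ratio was -1.32. The family's part in that relation was not tested.

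The subunits did not separate. The median nuclear over cytosolic ratio in control cells was -2.10 for the 47 large-subunit loci and -2.10 for the 30 small-subunit loci, and after knockdown -2.05 and -2.04. The family was also narrow. The 77 loci spanned 1.69 log2 units in control cells, with an SD over loci of 0.35, against 0.97 over other coding loci and 0.88 over the 347 high ones. This was not particular to the family: the 18 other mRNAs listed with a TOP motif, described below, had an SD of 0.34. None of the 77 was 2-fold or more from the family median.

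Within that narrow range the order of members was kept between conditions: over the 77 loci the control and knockdown ratios had a Pearson r of 0.91, as a description of points that share libraries and sequence. Other coding loci kept theirs as well, with an r of 0.91 over 10200 and 0.98 over the 347 high ones. Lowest in the nucleus were RPL7 (-2.86 in control, -2.47 after knockdown), a large-subunit protein, RPL12 (-2.84 and -2.80), a protein at the base of the stalk, RPL32 (-2.78 and -2.43) and RPS3A (-2.63 and -2.30). In control cells RPL12 read 3473 FPKM in the cytosolic and 486 FPKM in the nuclear fraction, a 7.14-fold difference. At the other end was RPS26, with -1.17 in control and -1.35 after knockdown, a 2.25-fold difference in control RNA. RPL37A, a large-subunit zinc-finger protein, followed with -1.36 and -1.59, with 1177 FPKM in the cytosolic and 458 FPKM in the nuclear control fraction. RPL36A, whose locus also carries HNRNPH2, had -1.43 and -1.56. The error from counting fragments alone, estimated from the depth, had a median of 0.022 on this scale and was at most 0.11. It rests on the length of 1 annotated transcript per gene, 7686 bases for RPL37 where the family median was 802. For members whose main transcript is shorter, the error is understated.

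**Figure D2:**
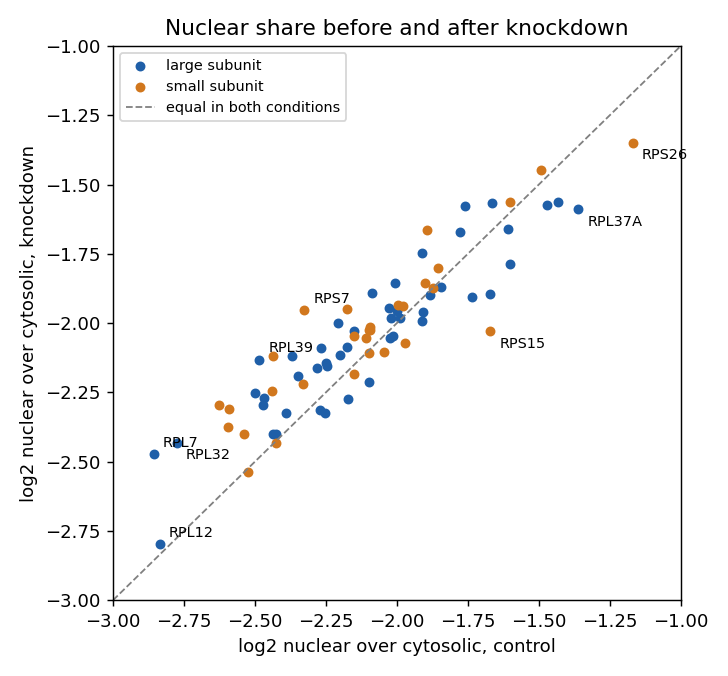
Each point is 1 of the 77 loci, placed by its log2 nuclear over cytosolic ratio in control (horizontal axis) and knockdown cells (vertical axis); the dashed line marks equal ratios. Large-subunit (blue) and small-subunit (orange) loci share one range, with RPL7 and RPL12 at the lower left, RPS26 at -1.17 in control at the upper right, and RPS15 furthest below the line.

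The P-stalk is the part of the large subunit that recruits translation factors. Its 3 mRNAs did not sit together: RPLP0 had -2.44 in control cells, RPLP2 -2.17 and RPLP1 -1.47, and after knockdown -2.40, -2.27 and -1.57. In control cells RPLP1 had 523 FPKM in whole-cell RNA, beside 600 FPKM in the nuclear and 1664 FPKM in the cytosolic fraction. It was 1 of 7 members whose whole-cell level was at or below the nuclear one in control RNA, the others being RPL31, RPL37, RPL37A, RPS15, RPS26 and RPS27A. For the remaining 70 of 77 the whole-cell value lay between the nuclear and cytosolic ones, and the same count held after knockdown.

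RPL5 and RPL11 travel with the 5S RNA and bind MDM2 when ribosome assembly stalls. RPL5 was among the lower members in the nucleus (-2.47) and RPL11 among the higher ones (-1.78). In control cells RPS6, the S6 kinase substrate, had -2.60 and RPS19, the gene most often mutated in Diamond-Blackfan anemia, had -2.10. RPL13A, a protein that takes part in interferon-driven translational control, had -2.27 in the same cells. RPL3, near the peptidyl transferase centre, had -1.76 and RPL10, a late-joining large-subunit protein, -2.28.

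Members with a snoRNA named in or over their locus, called hosts here, had a lower median in the nucleus than the rest of the family. The 26 hosts had a control median of -2.30, against -2.02 for the 51 members without such a name. A snoRNA that is not named among the deposited loci was not seen, so the 51 may include other hosts. Of the hosts, 22 of 26 passed 4-fold, and of the others 27 of 51, where 4.35% of all loci did. The median shift after knockdown was 0.13 for hosts and 0.04 for the others, and the median cytosolic knockdown ratio was -0.09 and -0.02. These groups were compared by their medians alone.

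After knockdown the family moved little. The median log2 ratio of knockdown to control over the 77 loci was 0.05 in whole-cell, 0.04 in nuclear and -0.04 in the cytosolic fraction, where other coding loci had 0.07, 0.04 and 0.04. The sign of these medians is not firm: the whole-cell one was -0.02 with equal medians, with equal totals and with quantile normalization, and the cytosolic one 0.00 with quantile normalization. Over the 77 loci the whole-cell ratios ran from -0.09 (RPLP1) to 0.26 (RPL13A), so that none reached 0.322 on the log2 scale in either direction, which is a level 25% higher or 20% lower and the threshold used for knockdown ratios and shifts. The SD over these loci was 0.06 in whole-cell, 0.14 in nuclear and 0.09 in the cytosolic fraction. It was 0.17, 0.21 and 0.20 over the 347 other coding loci of at least 100 FPKM, and 0.30, 0.30 and 0.33 over all other coding loci, many of which are counted on far fewer fragments. The 347 include HNRNPU, the siRNA target and their lowest locus in each preparation, which widens their SDs. Over the 18 other mRNAs listed with a TOP motif the SD was 0.10, 0.18 and 0.08, in the cytosolic fraction below that of the family.

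Subunits were again close. In whole-cell RNA the large-subunit median was 0.04 and the small-subunit median 0.05, in the nuclear fraction 0.05 and 0.04, and in the cytosolic fraction -0.02 and -0.06. RPL13A had the highest whole-cell ratio, from 1072 to 1279 FPKM, but 1059 to 940 FPKM in nuclear and 5107 to 4671 FPKM in the cytosolic fraction. Its locus also carries ALDH16A1, FLT3LG and 4 snoRNAs. RPS26 was next, with 0.18 in whole-cell, -0.00 in nuclear and 0.18 in the cytosolic fraction, followed by RPL8 with 0.16, -0.09 and -0.07.

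No member was past the threshold in whole-cell RNA, upward or downward, as 15.8% and 10.1% of all loci were, or in the cytosolic fraction, as 15.1% and 12.4% were. None was therefore higher in all 3 preparations by that much, as 1.44% of all loci were, or lower in all 3, as 1.33% were. The lowest whole-cell ratios belonged to RPLP1, from 523 to 491 FPKM (-0.09), RPL36A (-0.08) and RPL12 (-0.07). The 17 members listed as Diamond-Blackfan genes had a median knockdown ratio of 0.07 for whole-cell, 0.08 for nuclear and -0.00 for cytosolic RNA. These are bulk libraries, in which fewer cells with an RNA and less RNA per cell cannot be told apart.

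**Figure D3:**
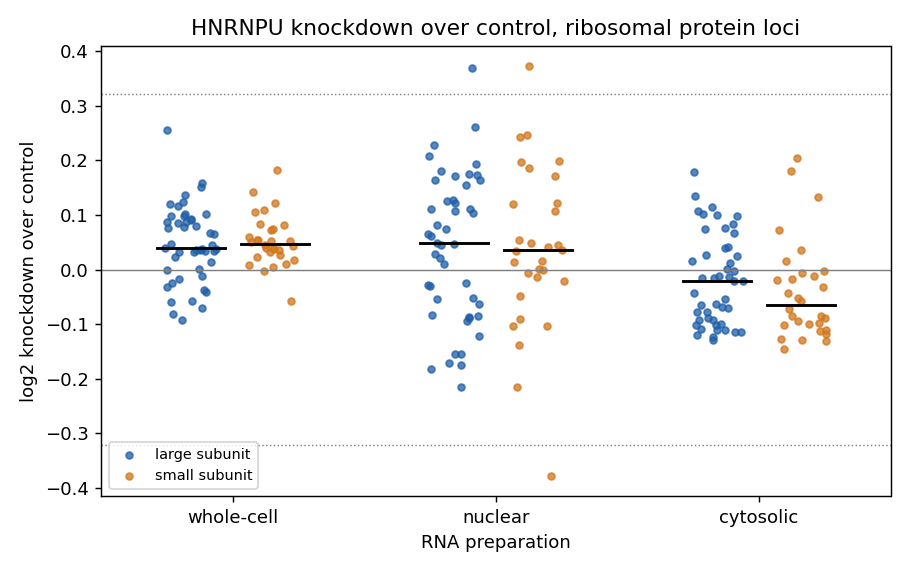
Each point is 1 of the 77 loci, placed by its log2 ratio of knockdown to control FPKM in each RNA preparation; bars are medians of the large (blue) and small (orange) subunit and dotted lines mark a level 25% higher or 20% lower. The loci lie between -0.09 and 0.26 in whole-cell RNA, inside the dotted lines, and spread further in the nuclear fraction, from -0.38 (RPS15) to 0.37 (RPS7).

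In nuclear RNA 3 members passed the threshold. RPL7 went from 553 to 715 FPKM (0.37) and RPS7, a small-subunit protein that also binds MDM2, from 454 to 588 FPKM (0.37), where 13.3% of all loci were higher by that much. RPS15, a small-subunit protein needed for export of the subunit precursor, went from 706 to 544 FPKM (-0.38), where 12.9% of all loci were lower. None of the 3 passed in the other preparations: their whole-cell ratios were 0.14, 0.08 and 0.00 and their cytosolic ratios -0.01, -0.00 and -0.02. With 2 of 77 loci higher and 1 lower, the nuclear share past the fold is below the background in both directions. The same 3 members passed under each of the 3 other scalings, and with quantile normalization RPL39 (higher) and RPS28 (lower) passed as well.

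The localization shift is the log2 nuclear over cytosolic ratio after knockdown minus that in control cells. Its median was 0.06 over the 77 loci and 0.00 over other coding loci, but -0.04 for the family with quantile normalization. RPL7 (0.38), RPS7 (0.37), RPL39 (0.35), RPL32 (0.34) and RPS3A (0.33) moved past 0.322 toward the nucleus, where 16.7% of all loci did, and RPS13 at 0.318 was just outside. These calls depend on the scaling: 6 members passed with libraries set to equal medians (RPS13 joined), 2 with equal totals (RPL7 and RPS7, with RPL39 at 0.31, RPL32 at 0.30 and RPS3A at 0.29) and 2 with quantile normalization (RPS7 and RPL39, with RPL7 at 0.30). RPS15 (-0.36) moved as far toward the cytosol, where 18.8% of all loci did, and RPL37A at -0.23 and RPL37 at -0.22, zinc-finger proteins of the large subunit, were the next. RPS15 was the single member past it in that direction under the other scalings too, except that RPL36 and RPL37A joined it with quantile normalization. Counting alone, with the same transcript lengths, gave an estimated error of 0.027 for the median member and at most 0.14.

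Base composition went along with the nuclear changes. Over the 77 loci the nuclear knockdown ratio and the GC content of a GENCODE transcript of the gene had a Pearson r of -0.55 and a Spearman rho of -0.55. In the 26 transcripts lowest in GC, from 42.1% to 47.0%, the median ratio was 0.12 and 21 lay above 0. In the middle 25 it was 0.05 with 19 above 0. In the 26 highest, from 53.6% to 64.1%, it was -0.05 with 8 above 0. RPL7 has 43.1% GC and RPS15 61.6%, at the ends of this order, but RPS7, with a nuclear ratio of 0.37, has 48.2% and RPL32, with 0.23, has 54.4%. The other coding loci, split at about the same values, had medians of 0.12, 0.05 and -0.08 (r -0.33 over 10200). Of them 3095 of 4425, 1148 of 1977 and 1397 of 3798 lay above 0 in the same order. Over the 77 loci the cytosolic ratio had an r of -0.30 with GC and the whole-cell ratio one of -0.10. The part of base composition in the nuclear values of single members was not tested, and the control and knockdown nuclear libraries also differ in depth, at 19.7 and 40.5 fragments per kilobase at 1 FPKM.

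**Figure D4:**
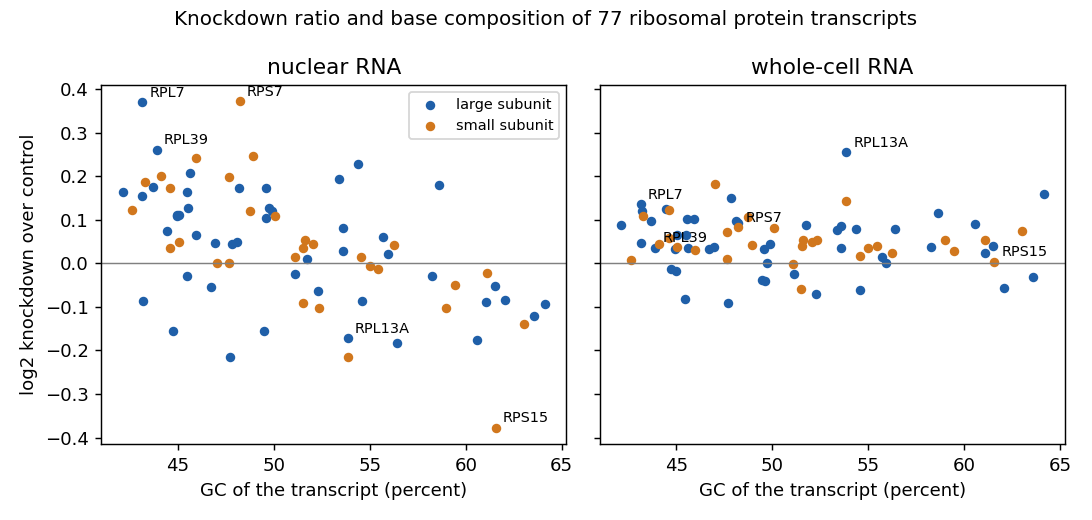
Each point is 1 of 77 loci, placed by the GC content of its transcript in percent and its log2 knockdown over control ratio in nuclear (left) and whole-cell RNA (right). Ratios decline with GC in the nuclear fraction (r -0.55) and lie close to a level line in whole-cell RNA (r -0.10), where RPL13A is highest at 0.26.

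The paralogs moved little. RPL39L had a shift of 0.04, beside 0.35 for RPL39, and RPS27L one of 0.05, beside 0.05 for RPS27, and their whole-cell knockdown ratios were 0.05 and 0.11, beside 0.04 for RPL39 and 0.11 for RPS27. In whole-cell RNA RPL3L read 0.539 FPKM before and 0 after knockdown, a level too low for a fold. RPL10L read 0.297 and 0.0915 FPKM, while RPL10 was level at 1277 and 1277 FPKM.

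Ribosomal proteins outside the name rule made 8 loci, among them paralogs at lower levels. RPSA had a control nuclear over cytosolic ratio of -2.62, GNB2L1 (RACK1) -2.36 and FAU -1.23, and the whole-cell knockdown ratios of these 3 were 0.01, 0.12 and 0.15. Of the 8 loci, 6 were at least 2-fold lower in the control nuclear fraction, where 29.1% of all loci and 68.6% of the 347 high coding loci were. RPL26L1, a paralog of RPL26, was the only one past the threshold upward in whole-cell RNA, and was so in every preparation: from 6.72 to 11.1 FPKM in whole-cell, 8.02 to 11.8 FPKM in nuclear and 25.1 to 32.9 FPKM in the cytosolic fraction. Of all loci 15.8% were past the threshold upward in whole-cell RNA and 1.44% in all 3 preparations. RPL22L1 rose from 14.3 to 21.7 FPKM in the nuclear fraction and read 19.7 and 19.9 FPKM in whole-cell RNA. With RPL26L1 it made 2 of 8 past the threshold upward in the nuclear fraction, where 13.3% of all loci were.

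Other mRNAs with a classical TOP motif had a median near that of the family. The 18 genes listed, mostly translation factors, had a control median of -2.18, with 18 of 18 at least 2-fold and 14 of 18 at least 4-fold lower in the nuclear fraction, where 29.1% and 4.35% of all loci and 68.6% and 15.3% of the 347 high coding loci were. Their median shift was 0.19, where other coding loci had 0.00, on the deposited scale alone. EIF3H (0.42), EIF3E (0.35) and EEF1A1 (0.32) had the largest values. These 3 of 18 were past the threshold toward the nucleus, a share of 16.7%, the same as that of all loci. EIF3H went from 45.8 to 57.6 FPKM in nuclear and from 273 to 257 FPKM in the cytosolic fraction. The whole-cell median of the 18 was 0.08. None was past the threshold there, upward or downward, as 15.8% and 10.1% of all loci were. Of 13 with an entry, 12 had the run of pyrimidines at the start. Outside the family the run went along with a smaller difference. There 621 coding loci with the run had a control median of -0.93 and 7567 without it -0.57. Those with the run also had higher levels, with a median of 15.9 against 11.7 FPKM, and the part of each was not tested. The family had -2.10 with the run (45 loci) and -2.18 without (17 loci).

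Genes that control TOP mRNAs (14 listed) had a control median of -0.73 and a whole-cell knockdown median of 0.17, where other coding loci had -0.60 and 0.07. TIAL1, an RNA-binding protein that represses TOP translation, was past the threshold at 0.52 (23.3 to 33.5 FPKM). It was 1 of 14 past it upward in whole-cell RNA, a share below the 15.8% of all loci. LARP1, the cap-binding repressor of TOP mRNAs, read 68.7 and 72.9 FPKM in whole-cell, 86.8 and 90.5 FPKM in nuclear, and 117 and 127 FPKM in the cytosolic fraction. TSC1, an inhibitor of mTOR, had a shift of -1.19, from 7.22 to 5.31 FPKM in nuclear and 2.97 to 5.10 FPKM in the cytosolic fraction. It was 1 of 14 past the threshold toward the cytosol, where 18.8% of all loci were. EIF4EBP2 (0.34) was 1 of 14 past it toward the nucleus, where 16.7% were. Both shares are below the background.

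Ribosome assembly factors (27 listed) had a whole-cell knockdown median of 0.22, where other coding loci had 0.07. Of them 4 were past the threshold upward, where 15.8% of all loci were, and none was lower. RRS1 went from 10.1 to 14.8 FPKM, UTP20 from 2.66 to 3.74 FPKM and POLR1B, a subunit of RNA polymerase I, from 12.8 to 17.0 FPKM. POLR1B was lower after knockdown in the fractions, at 21.7 and 20.5 FPKM in the nuclear and 32.1 and 25.3 FPKM in the cytosolic one. In nuclear and cytosolic RNA the medians were 0.12 and 0.11, 2 and 3 of 27 were past the threshold upward, where 13.3% and 15.1% of all loci were, and 2, POLR1B among them, were past it downward in the cytosolic fraction, where 12.4% were. These shares are below the background. Among 5 genes listed as dedicated chaperones of ribosomal proteins, TSR2, which delivers RPS26, was higher in each preparation. It went from 5.44 to 7.11 FPKM in whole-cell, 5.50 to 7.27 FPKM in nuclear and 13.6 to 18.2 FPKM in the cytosolic fraction. It was past the threshold upward in all 3, as 1.44% of all loci were. The others differed among themselves: the list's whole-cell median was 0.04, HEATR3 had -0.05, -0.27 and -0.31 in whole-cell, nuclear and cytosolic RNA, GRWD1 had 0.23, -0.40 and 0.15, and AAMP had 0.03, 0.07 and 0.52. Noncoding snoRNA hosts, 9 genes such as GAS5, had a control median of -1.21 and a whole-cell knockdown median of -0.03.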

How the data were processed

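The authors deposited FPKM values for 6 libraries in one table, with hg19 coordinates. Tools in the submitters' processing notes are TopHat2 2.0.13, Cuffdiff 2.2.1, CASAVA and FastQC, and the builds mm9 and hg19 are named without a role. How libraries were scaled, which annotation was used and whether counting used the strand: not given in the sources used here. TRIzol extraction, depletion of ribosomal RNA and strand-specific library preparation are per the labels' protocols. Members and lists were chosen with earlier results of these data known; 2 loci that match the name rule are not reported here and enter no value.

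Kept were 12836 loci averaging 1 FPKM or more. Ratios are differences of log2(FPKM + 0.1), which understates changes of low loci. Fixed folds were 2 and 4 for nuclear over cytosolic ratios and a level 25% higher or 20% lower (0.322 on the log2 scale) for knockdown ratios and shifts. With 1 library per group no test was run; a model with condition and preparation as terms could be fitted but was not run, because preparations are not replicates and may share a culture. Gene types, lengths and GC came from GENCODE release 29 by symbol, promoters from RefSeq. Length and GC are those of 1 transcript per gene, which need not be the main one in these cells. Depth was estimated from steps of low values of single-exon genes, whose length was cut by 240 bases; such errors cover counting only. Named members were the 4 highest and 4 lowest nuclear over cytosolic ratios, the 3 highest and lowest shifts, whole-cell knockdown ratios and mean levels, and a fixed set of paralogs, stalk, 5S and well-studied genes; of other lists up to 3 with the largest change and LARP1. Members past a fold or near it, and others named by role or place, were added after their values were seen. Alternatives were another pseudocount, other minimum levels, 3 other scalings, and subsets or additions of members. Calculations used Python 3.11.15, numpy 2.4.6 and pandas 2.3.3 and were tested on simulated data.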

Additional observations from a re-analysis of the deposited data

Results flagged for a closer look

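The family median of the knockdown ratio lay above 0 in whole-cell and nuclear RNA (0.05 and 0.04) and below 0 in cytosolic RNA (-0.04). It was looked at again because the preparations lie on opposite sides of 0. Whole-cell minus cytosolic was 0.088 and nuclear minus cytosolic 0.088 on the log2 scale, and the difference was not tested. The first was 0.065 with libraries set to equal medians, 0.014 with equal totals and, with its sign turned, -0.023 with quantile normalization. The second was 0.11, 0.043 and 0 in the same order. In whole-cell RNA 63 of 77 loci lay above 0, in nuclear RNA 48 and in cytosolic RNA 24, where 7795, 6928 and 6966 of all 12836 loci kept did. With libraries set to equal medians the counts of the 77 loci were 30, 44 and 16, with equal totals 28, 40 and 27, and with quantile normalization 26, 38 and 33. No single member was past the threshold of 0.322 in opposite directions in 2 preparations.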

How the results depend on the processing

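Scaling mattered most. The median nuclear over cytosolic ratio was -1.64 in control and -1.56 after knockdown with libraries set to the median of named loci, -0.85 and -0.84 with equal totals, and -0.50 and -0.52 with quantile normalization, which also turned the median shift to -0.040. Under equal totals RPS26 changed sign in control cells (0.080). Quantile normalization turned the control values of RPS15 (0.13), RPLP1 (0.18), RPS27 (0.37), RPL36A (0.36) and RPL37A (0.27) and the knockdown values of RPL3 (0.091), RPLP1 (0.040), RPS27 (0.25) and RPL36A (0.17). Pseudocount 1, a minimum of 5 FPKM, and leaving out L-suffixed paralogs, snoRNA loci or loci with another gene name moved none of the 11 summary values past 0.1 (log2) or 1.5-fold in a count. Without a minimum level 2 members, the barely detected RPL3L and RPL10L, lay 2-fold off the family median and were past 0.322 downward in whole-cell RNA. With ribosomal proteins outside the rule added, 2 lay 2-fold off the median (RPL7L1 and RPL36AL) and 1, RPL26L1, was past 0.322 upward. Members past 0.322 toward the nucleus numbered 5, but 6 with equal medians, 2 with equal totals and 2 with quantile normalization; toward the cytosol 1, but 3 with quantile normalization. No paired analysis was possible because the labels carry no replicate numbers that tie libraries together. A model of condition with the preparation as a term was not run, since preparations are different compartments and not replicates. Depth limits low loci such as RPL3L and RPL10L.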
